A study of Mus musculus with 10 samples.

Results

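The 44 genes described here take glucose into the cell, break it down to pyruvate, handle the lactate and pyruvate that result, or belong to the response to low oxygen. They were taken by name from a table of 25239 gene symbols, 43 under their own symbol and Ero1a under its older symbol Ero1l, so that all 44 were found. They were grouped by role into 2 glucose transporters, 14 glycolytic enzymes, 2 regulators of phosphofructokinase, 7 genes of lactate and pyruvate handling, 7 genes of the hypoxia-inducible factors (HIF) and of oxygen sensing, and 12 HIF targets outside glycolysis.

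RNA came from stem cells of the calvaria that were isolated by flow sorting from mouse sutures at postnatal day 7, in 10 libraries. A first group of 5 libraries is labelled DDR2-plus and the other 5 PSC, a name that the labels do not spell out. All 10 libraries carry the genotype label WT, while the extraction protocol, shared by both groups, names Ctsk-Cre mice, which express the Cre recombinase under control of the cathepsin K gene. No treatment is given for either group, the animals' sex and strain are not in the sources used here, and whether a library came from 1 animal or a pool is not said, so that a p-value speaks of the spread between libraries only. The transcript of Ddr2, the collagen receptor that the first label names, was lower in the libraries labelled DDR2-plus (edgeR adjusted p = 0.000165), with a mean of 112 ± 3.56 there and 152 ± 10.7 CPM in the PSC libraries (SD, n = 5), and Ctsk was also lower, at 107 ± 15.2 against 294 ± 15.0 CPM (edgeR adjusted p = 4.36e-07). CPM are the counts of a gene over the library total, adjusted by a TMM factor. The gates of the sort are not in the sources used here.

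In glycolysis, glucose enters through membrane transporters, hexokinase traps it as glucose phosphate, phosphofructokinase commits it to breakdown, and pyruvate kinase yields pyruvate. Lactate dehydrogenase interconverts pyruvate and lactate, monocarboxylate transporters move lactate across the membrane, and the pyruvate dehydrogenase kinases keep pyruvate out of the mitochondrial cycle. When oxygen is plentiful, prolyl hydroxylases of the EGLN family mark the alpha subunits of HIF for destruction by the VHL ligase. When it is scarce, HIF accumulates as protein and switches on many genes of glycolysis together with genes of mitophagy, pH control and signalling. Cartilage has no blood vessels, and its cells are known for living in low oxygen and relying on glycolysis, whereas osteoblasts lie close to vessels and also use glycolysis heavily.

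Total counts lay between 43419129 and 62021992 per library. The first principal component of all tested genes held 51.7% of the variance and separated the groups, and the second held 10.4% and set PSC 5 apart from the other PSC libraries. On it PSC 5 lay at 98.18 and PSC 1 at -53.04, with the other PSC libraries between -10.38 and -23.13. Markers of other tissues moved with the groups. All 8 chondrocyte markers rose in DDR2-plus, where their summed level was 80840 to 111800 CPM against 9611 to 23100 CPM in PSC, and 7 of 8 osteoblast markers fell, from 264500 to 294400 CPM in PSC to 47540 to 86110 CPM. All 6 glia markers (summed level 175.6 to 596.2 against 7.807 to 36.72 CPM), 5 of 6 neuron markers (38.77 to 126.0 against 6.784 to 12.8 CPM), 5 of 6 pineal and photoreceptor markers (135.8 to 210.9 against 4.368 to 7.521 CPM, with Cdhr1 and Aanat at 0 in PSC), all 6 markers of cycling cells (162.8 to 282.0 against 92.52 to 130.0 CPM) and 9 of 10 genes of the early response to dissociation (17930 to 21680 against 7792 to 11520 CPM) were also higher in DDR2-plus. Tendon markers fell in 5 of 6 cases, from 2.365-fold for Mkx to 20.5-fold for Kera. The other, Fmod, rose to a mean of 3547 against 2507 CPM in PSC. With Fmod included, the tendon markers summed to 3213 to 4158 CPM against 4839 to 5698 CPM in PSC. Leukocyte, erythroid, endothelial and skeletal muscle markers stayed at or under 55.92 CPM in every library. The part of these cells and states in the results that follow was not tested. In sorted bulk RNA, fewer cells of a type and less RNA per cell cannot be told apart.

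Of the 44 genes, all of which passed the filter on low counts, 18 rose (40.9%) and 5 fell (11.4%) in DDR2-plus by edgeR's quasi-likelihood test at an adjusted p under 0.05. Among all 15416 tested genes, 39.1% were called, 20.1% as higher and 19.0% as lower. The median log2 fold change, always DDR2-plus over PSC, was 0.19 for the 44 genes and 0.04 for all tested genes. The libraries of the groups did not overlap for 18 of the 44, against 30.1% of all tested genes. Without PSC 5, 17 rose and 5 fell, and without PSC 1, 18 rose and 4 fell.

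**Figure D1:**
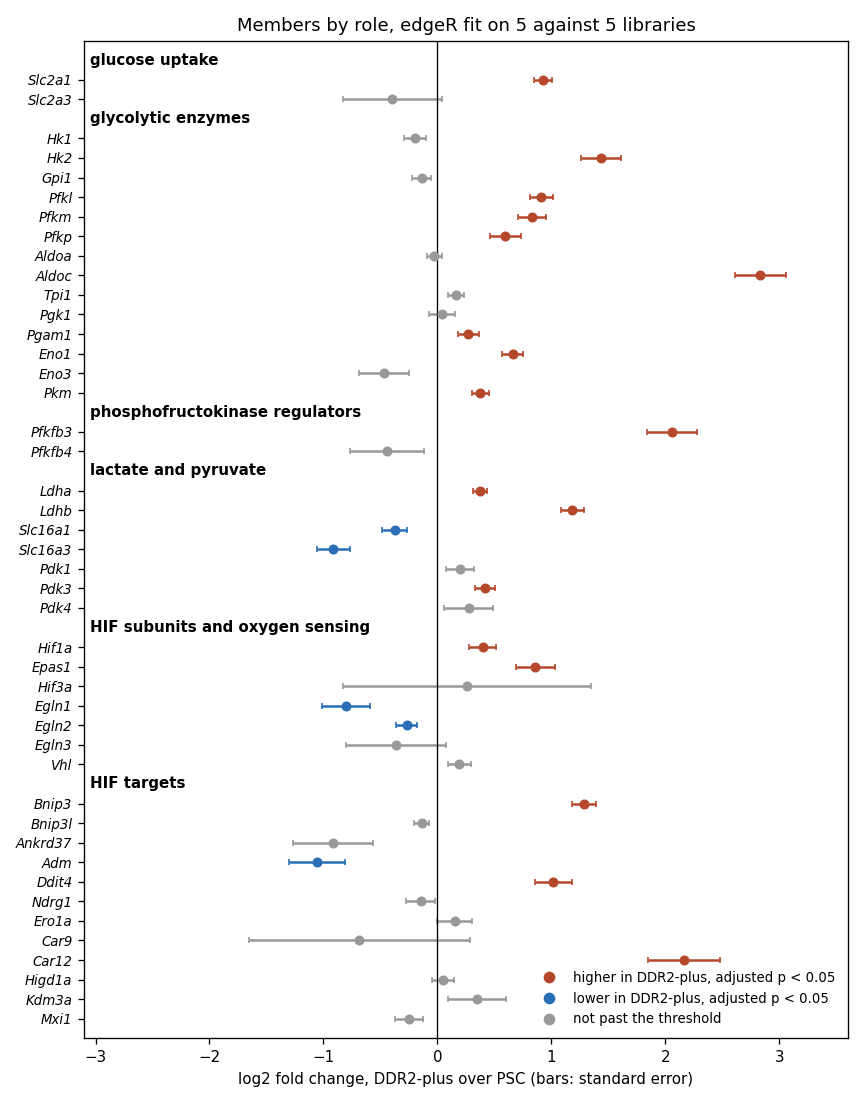
Log2 fold change of each of the 44 genes, DDR2-plus over PSC (horizontal axis), with its standard error, grouped by role. The 18 red points were called as higher and the 5 blue points as lower, and the range runs from -1.06 for Adm to 2.83 for Aldoc.

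HIF binds a short DNA core, ACGTG or GCGTG, and promoters of genes that rose, fell or did not pass are shown to compare how the core is placed in them. The stretches come from RefSeq promoter windows on GRCm38.p6, the assembly that mm10 stands for, and lie before the first start site listed for each gene. Each runs from 20 bases before the first to 20 bases after the last core found in the 150 bases before the start, ending at the start at the latest, so that their lengths differ, from 45 to 156 bases. They are written 5′ to 3′ along the gene, with every core of either strand in capitals (CACGT and CACGC are the cores of the other strand). Bnip3 (chr7:138909517-138909643, minus strand), Hk2 (chr6:82774482-82774526, minus strand) and Ldha (chr7:46845639-46845794, plus strand) rose in DDR2-plus. Pgk1 (chrX:106186930-106186993, plus strand) did not pass, and Slc16a3 (chr11:120949020-120949066, plus strand) and Adm (chr7:110627547-110627627, plus strand) fell.
Bnip3: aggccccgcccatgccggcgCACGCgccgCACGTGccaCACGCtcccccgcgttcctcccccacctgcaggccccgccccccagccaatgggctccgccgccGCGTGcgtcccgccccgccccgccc
Hk2: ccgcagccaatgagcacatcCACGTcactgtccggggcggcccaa
Ldha: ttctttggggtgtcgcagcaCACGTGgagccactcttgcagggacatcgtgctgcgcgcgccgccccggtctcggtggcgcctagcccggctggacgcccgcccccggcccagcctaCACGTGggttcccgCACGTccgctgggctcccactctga
Pgk1: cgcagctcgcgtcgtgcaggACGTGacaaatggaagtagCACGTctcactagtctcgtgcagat
Slc16a3: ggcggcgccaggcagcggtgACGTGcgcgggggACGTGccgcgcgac
Adm: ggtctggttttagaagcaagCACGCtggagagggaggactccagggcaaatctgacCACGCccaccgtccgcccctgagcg

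In these stretches Bnip3 and Ldha held 5 cores each, Pgk1, Slc16a3 and Adm 2 each and Hk2 1, with another Hk2 core further upstream and outside its stretch. A core pair on opposite strands, as in CACGTG, is counted on both and is also the E-box of other factors, and it was found in Bnip3 and Ldha. Of the 44 genes, 40 had a window, which runs from 250 bases before to 50 bases after a start site, and Slc2a3, Epas1, Bnip3l and Ndrg1 had none. At least 1 core of either kind lay in a window of 36 of the 40 genes (90.0%), against 46.7% of all 27018 genes with a window. Some genes have several windows, and counted per window the shares were 79.3% of 58 against 43.8% of 32841, or 49.3% for protein-coding genes. The windows of the 40 genes were richer in G and C, with a median of 62.8% against 52.7% (56.3% for protein-coding genes), and the core holds the CG pair, so base composition moves with this share and its part was not tested.

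Cores were found for 16 of the 17 genes with a window that rose, for 5 of 5 that fell and for 15 of 18 that did not pass. By role, 12 of 14 enzymes and 9 of 10 HIF targets held at least 1. Car12 was the gene that rose whose window held none. A match shows only that these letters are in the window.

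Of the 2 glucose transporter transcripts among the 44 genes, 1 rose. Slc2a1 (mm10 chromosome 4, 119108711 to 119137983, plus strand), which encodes the widespread transporter GLUT1, was at 88.3, 88.5, 79.8, 87.7 and 77.1 CPM in DDR2-plus 1 to 5 and at 44.1, 40.7, 45.2, 41.8 and 49.8 CPM in PSC 1 to 5. Every DDR2-plus library stood above every PSC library, and the gene was 1.90-fold higher (log2 fold change 0.93, SE 0.0779, edgeR adjusted p = 2.18e-06). Slc2a3, the high-affinity transporter best known from neurons, was near the bottom of the range and did not pass the test. Its level was 2.31 ± 1.14 and 3.04 ± 1.14 CPM (DDR2-plus, then PSC, SD, n = 5 each). Most neuron markers were higher in DDR2-plus, and the part of neurons in this low level was not tested.

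Among the glycolytic enzymes, 8 of 14 rose (57.1%) and 0 fell by edgeR, beside 20.1% higher and 19.0% lower over all tested genes, with a median log2 fold change of 0.32. None of the 14 was lower at an unadjusted p under 0.05, and DESeq2 and limma-voom also called 0 as lower. The first irreversible step turned on Hk2 (chromosome 6, 82725025 to 82774454, minus strand), the inducible hexokinase. Its level was 53.0, 57.3, 33.4, 56.5 and 48.9 CPM in DDR2-plus against 22.0, 18.8, 12.2, 20.6 and 18.6 CPM in PSC, 2.70-fold higher without overlap (log2 fold change 1.43, SE 0.175, edgeR adjusted p = 3.9e-05). DDR2-plus 3 and PSC 3 were the lowest libraries of their groups, and they were also those with the lowest sum of chondrocyte markers (80840 and 9611 CPM) and of early-response genes (17930 and 7792 CPM), whose part in the level was not tested. Hk1, the constitutive hexokinase, stood at 62.5 ± 5.44 and 71.7 ± 8.48 CPM without a call (edgeR adjusted p = 0.125).

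Phosphofructokinase, the committing step, rose through all of its genes. Pfkl, named for liver, was at 142, 131, 122, 138 and 134 CPM in DDR2-plus against 81.0, 55.6, 62.8, 79.6 and 75.2 CPM in PSC, 1.88-fold higher. Pfkm, named for muscle, was 1.78-fold higher at 72.1 ± 3.95 against 40.5 ± 8.23 CPM, and Pfkp, named for platelets, 1.51-fold higher at 35.9 ± 4.49 against 23.8 ± 4.50 CPM, with DDR2-plus 1 just below PSC 4. The edgeR adjusted p was 2.15e-05, 0.000214 and 0.00398 for the 3 genes. Of the exons of Pfkp, 17.4% are shared with Pitrm1, and since the libraries carry no strand, reads there could belong to either gene.

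Pfkfb3 (chromosome 2, 11471433 to 11554077, minus strand), which encodes the kinase that makes the strongest activator of phosphofructokinase, had a larger fold change than the phosphofructokinase genes, a difference that was not tested. It was at 83.4, 101, 62.1, 113 and 92.2 CPM in DDR2-plus against 22.1, 28.5, 15.3, 28.2 and 14.1 CPM in PSC. The lowest DDR2-plus value was more than the highest PSC value, and the gene was 4.17-fold higher (log2 fold change 2.06, SE 0.219, edgeR adjusted p = 1.31e-05). Its relative Pfkfb4, a hypoxia-induced gene in many cells, stood at 5.52 ± 2.24 and 7.50 ± 2.60 CPM, without a call.

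In the middle of the pathway 4 enzymes did not pass. For DDR2-plus and PSC in turn, Gpi1, the phosphoglucose isomerase, lay at 55.5 ± 4.65 and 61.1 ± 4.403 CPM, Aldoa, the main aldolase, at 324 ± 16.5 and 331 ± 22.0 CPM, and Tpi1, the triosephosphate isomerase, at 216 ± 14.2 and 193 ± 14.4 CPM. Their log2 fold changes were -0.14, -0.03 and 0.16 (SE 0.0811, 0.0660 and 0.0720). Pgk1, the phosphoglycerate kinase, stood at 23.5 ± 1.38 and 22.8 ± 3.43 CPM. With library size as the only scaling, Aldoa passed as higher (0.24, edgeR adjusted p = 0.0148), Tpi1 passed as higher (0.44) and Pgk1 passed as higher (0.32), while the median of all genes moved from 0.04 to 0.31.

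Aldoc (chromosome 11, 78322968 to 78327781, plus strand), the aldolase of brain, was the exception in the middle and had the largest fold change of the 44 genes. It was at 24.7, 22.4, 20.04, 25.4 and 17.6 CPM in DDR2-plus against 4.88, 2.14, 3.17, 2.77 and 2.44 CPM in PSC, 7.13-fold higher (log2 fold change 2.83, SE 0.227, edgeR adjusted p = 1.57e-06). Astrocytes are known for this gene, and the glia markers, all 6 of them higher in DDR2-plus, moved with it. Among the DDR2-plus libraries the summed glia level ran from 175.6 to 596.2 CPM and Aldoc from 17.6 to 25.4 CPM. The part of glia in the Aldoc level was not tested.

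Of the 4 enzyme genes of the last steps, Eno1, Pkm and Pgam1 rose and Eno3 did not pass. Eno1, the common enolase, was at 185, 200, 176, 179 and 168 CPM in DDR2-plus against 141, 108, 113, 109 and 103 CPM in PSC, 1.58-fold higher (edgeR adjusted p = 8.68e-05). Pkm, the pyruvate kinase of most tissues, was 1.30-fold higher at 415 ± 15.8 against 320 ± 34.3 CPM (edgeR adjusted p = 0.00166), and its groups did not overlap. Of its exons, 12.9% are shared with another annotated gene. Pgam1, the phosphoglycerate mutase, was 1.21-fold higher (edgeR adjusted p = 0.035), a call that was lost in 8 of the 10 fits that left out 1 library, with adjusted p up to 0.0802. Eno3, the muscle enolase, stood at 9.78 ± 2.87 and 13.6 ± 2.90 CPM without a call. Skeletal muscle markers summed to 20.67 to 55.92 CPM in DDR2-plus against 9.666 to 25.66 CPM in PSC. Of 6 of them tested, 2 were called as higher (33.3%, beside 20.1% of all tested genes) and 4 did not pass. The part of muscle in the Eno3 level was not tested.

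Levels of different genes can be compared only per length, so CPM were divided by the exonic length of each gene in kilobases. Summed over the genes of a step, phosphofructokinase was at 68.1 ± 3.31 against 38.1 ± 6.18 CPM per kilobase, a ratio of 1.79. The ratio was 1.44 for enolase, 1.36 for lactate dehydrogenase, 1.30 for pyruvate kinase, 1.21 for hexokinase, 1.21 for phosphoglycerate mutase, 1.12 for triosephosphate isomerase, 1.03 for phosphoglycerate kinase, 1.02 for aldolase and 0.908 for phosphoglucose isomerase. The libraries of the groups did not overlap for 4 of the 10 steps, beside 30.1% of all single genes tested. These steps were phosphofructokinase, enolase, pyruvate kinase and lactate dehydrogenase. In the aldolase sum, Aldoa, at 178 against 181 CPM per kilobase, far exceeded Aldoc, at 7.41 against 1.04 CPM per kilobase.

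Ldha was the highest of the 44 genes per kilobase in both groups, at 337 and 260 CPM per kilobase in DDR2-plus and PSC, followed by Aldoa, Pkm, Tpi1 and Eno1 in the same order in both. Below these 5 the order differed between the groups. Bnip3 ranked 6 in DDR2-plus and 13 in PSC, Pfkfb3 ranked 21 and 34, Hk2 26 and 36, and Aldoc 29 and 41. Adm went the other way, from 17 in PSC to 28 in DDR2-plus. Pgk1 stood at 12.9 and 12.5 CPM per kilobase, and Gapdh, the enzyme just before it in the pathway, at 21.5 and 19.3 CPM per kilobase. Processed copies named for Aldoa, Pgk1, Pgam1, Ldha, Vhl and Bnip3l are annotated in the mouse genome. How many reads such copies cost these genes was not tested, and copies of Gapdh were not searched for.

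**Figure D2:**
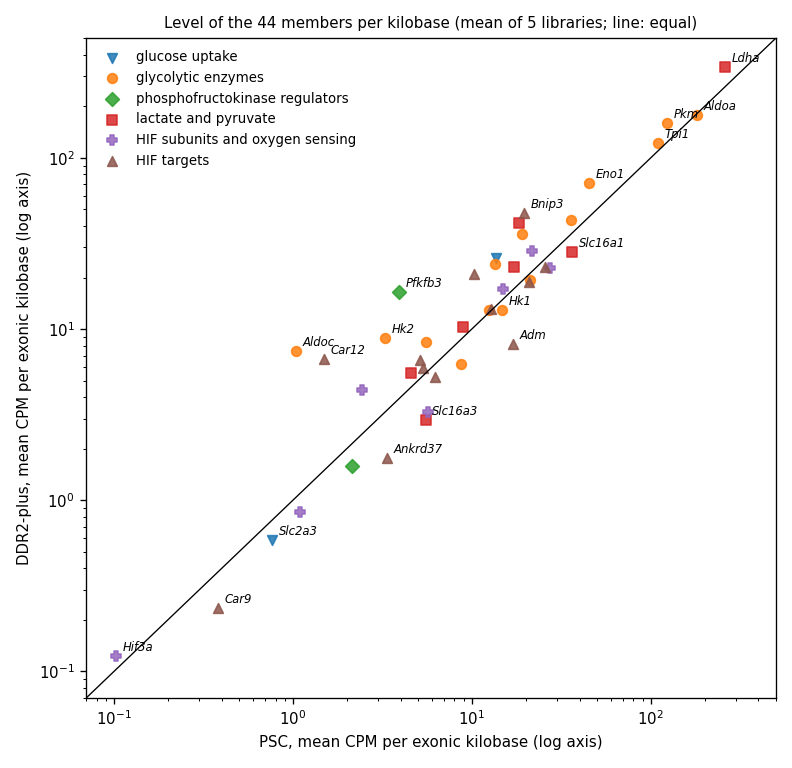
Mean level of each of the 44 genes in PSC (horizontal) and DDR2-plus (vertical), in CPM per exonic kilobase on log axes, n = 5 libraries each, with the line of equal levels. Ldha is at the top in both groups, and Aldoc, Car12, Pfkfb3 and Hk2 lie well above the line, while Adm and Ankrd37 lie below it.

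Of the 7 lactate and pyruvate genes, 3 rose (42.9%) and 2 fell (28.6%), beside 20.1% and 19.0% of all tested genes. Ldha, the subunit that favours the making of lactate, was at 649, 650, 624, 640 and 633 CPM in DDR2-plus against 553, 471, 468, 484 and 486 CPM in PSC, 1.30-fold higher without overlap (edgeR adjusted p = 0.000371). Ldhb, the subunit that favours the reverse reaction, was at 60.5, 49.9, 54.9, 49.0 and 57.6 CPM against 27.8, 21.9, 20.7, 24.4 and 25.0 CPM. It was 2.27-fold higher (log2 fold change 1.18, SE 0.101, edgeR adjusted p = 2.38e-06), a larger fold than that of Ldha.

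Slc16a3, which encodes the lactate exporter MCT4, fell in DDR2-plus. It was at 11.8, 15.3, 12.9, 12.0 and 13.1 CPM in DDR2-plus against 24.4, 20.7, 29.9, 19.0 and 28.9 CPM in PSC, 1.89-fold lower (log2 fold change -0.91, SE 0.146, edgeR adjusted p = 0.000315). Every DDR2-plus library lay below every PSC library. Slc16a1, which encodes the carrier MCT1, was 1.30-fold lower at 124 ± 14.2 against 161 ± 24.6 CPM (edgeR adjusted p = 0.0178), with overlap through PSC 5, and lost the call under library-size scaling (log2 fold change -0.10, adjusted p = 0.484).

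Of the pyruvate dehydrogenase kinases, Pdk3 was 1.33-fold higher, with 48.5 ± 3.96 CPM in DDR2-plus against 36.4 ± 2.64 CPM in PSC (edgeR adjusted p = 0.00193). Pdk1, the kinase that HIF is best known to induce, stood at 53.1 ± 10.4 and 46.3 ± 3.93 CPM without a call, and DDR2-plus 2 stood apart at 71.0 CPM. It passed as higher under library-size scaling (log2 fold change 0.46). Pdk4, a gene of fasting and fat use, stood at 19.3 ± 3.79 and 15.9 ± 5.06 CPM, without a call.

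**Figure D3:**
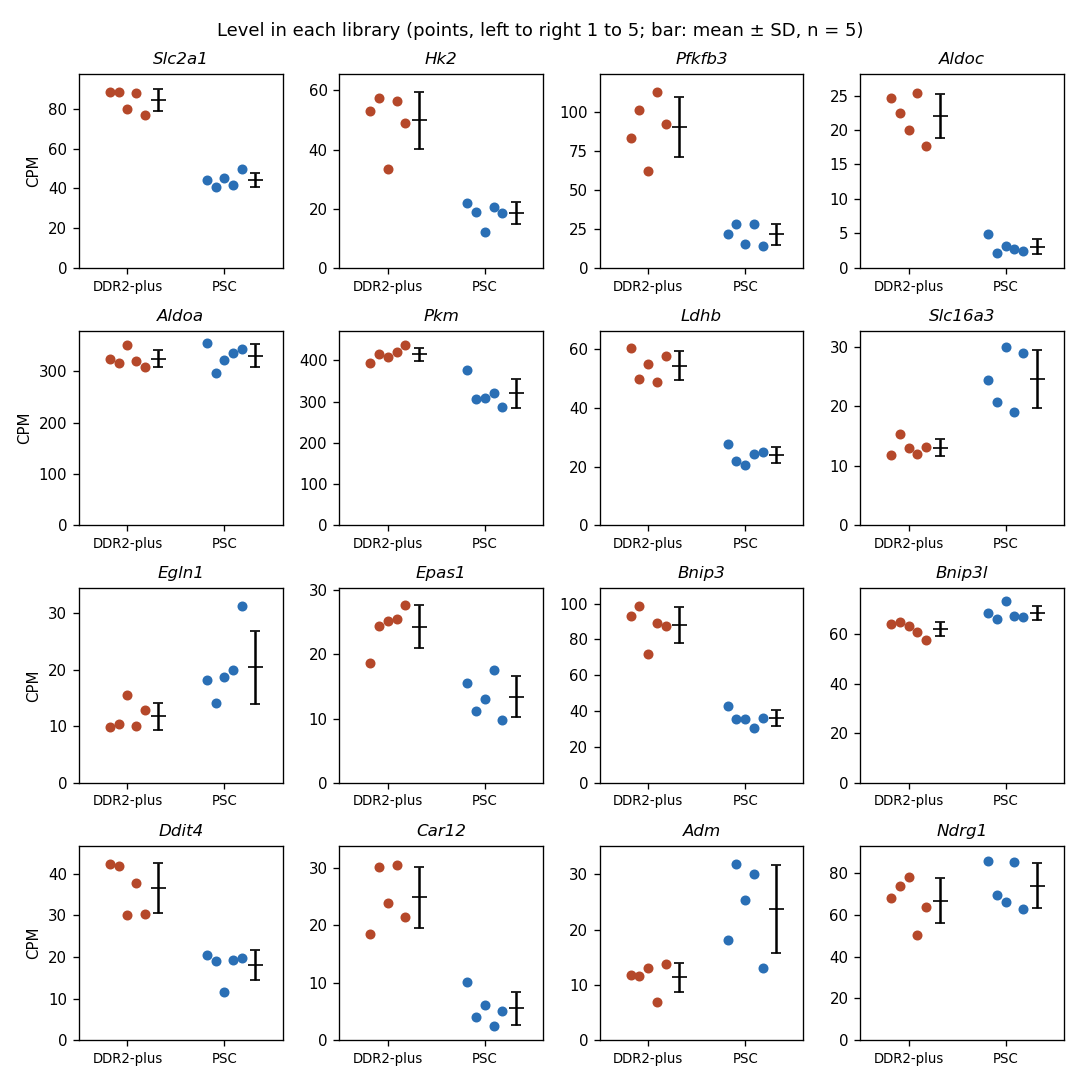
Level in CPM of 16 of the genes in each library, with points from left to right for libraries 1 to 5 of DDR2-plus (red) and PSC (blue) and bars for the mean ± SD (n = 5). Slc2a1, Hk2, Pfkfb3, Aldoc, Pkm, Ldhb, Epas1, Bnip3, Ddit4 and Car12 show no overlap with DDR2-plus above. Slc16a3 and Bnip3l show none with DDR2-plus below, and Aldoa, Egln1, Adm and Ndrg1 overlap.

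Of the HIF and oxygen-sensing genes, 2 of 7 rose and 2 fell (28.6% each, beside 20.1% and 19.0% of all tested genes), and 3 did not pass. Hif1a (chromosome 12, 73901375 to 73947530, plus strand) was at 172, 183, 139, 153 and 133 CPM in DDR2-plus against 132, 127, 91.4, 130 and 112 CPM in PSC, 1.32-fold higher (log2 fold change 0.40, SE 0.116, edgeR adjusted p = 0.016). DDR2-plus 5 and PSC 1 were only just apart. Epas1, which encodes HIF2A, was 1.81-fold higher at 18.7, 24.4, 25.2, 25.6 and 27.6 CPM against 15.5, 11.1, 13.1, 17.5 and 9.74 CPM (edgeR adjusted p = 0.00143), and its groups did not overlap. It is abundant in endothelial cells, whose 5 markers summed to 11.86 to 34.82 CPM in DDR2-plus against 11.0 to 22.46 CPM in PSC, with Pecam1 and Kdr higher and Cdh5 lower among 4 tested. The part of endothelial cells was not tested. HIF is controlled mainly as protein, which these data do not measure. Hif3a, an inhibitory relative, had 403 counts in all and lay at or under 2.16 CPM, with 0 counts in DDR2-plus 1, which allows up to 0.0532 CPM there.

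Egln1, the main HIF prolyl hydroxylase, was at 9.85, 10.4, 15.4, 10.03 and 12.9 CPM in DDR2-plus against 18.2, 14.0, 18.7, 19.96 and 31.3 CPM in PSC, 1.74-fold lower (log2 fold change -0.80, SE 0.209, edgeR adjusted p = 0.00858). DDR2-plus 3 and PSC 2 overlapped, PSC 5 was the highest, and library-size scaling ended the call (adjusted p = 0.0582). Egln2 was 1.21-fold lower (edgeR adjusted p = 0.0323), a call lost in 4 of the 10 fits that left out 1 library and under library-size scaling, where the adjusted p was 0.991. Egln3, the hydroxylase that HIF itself induces, was at 2.27 ± 1.25 and 2.92 ± 1.23 CPM, and Vhl at 47.8 ± 5.21 and 41.8 ± 4.32 CPM, both without a call. Per kilobase, Egln2 made up 84.8% ± 2.70 of the 3 hydroxylase transcripts in DDR2-plus and 80.1% ± 4.47 in PSC.

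HIF targets outside glycolysis gave calls in both directions, with 3 of the 12 higher, 1 lower and 8 not past the threshold, so that 33.3% were called, near the 39.1% of all tested genes, and their median log2 fold change was -0.05. Bnip3 (chromosome 7, 138890836 to 138909519, minus strand), a receptor for the removal of mitochondria, was at 93.0, 99.0, 72.1, 89.3 and 87.3 CPM in DDR2-plus against 42.8, 35.7, 35.6, 30.8 and 36.1 CPM in PSC, 2.44-fold higher (log2 fold change 1.28, SE 0.104, edgeR adjusted p = 1.72e-06). Its printed promoter stretch holds 5 cores, and 27.2% of its exons are shared with another gene model, Gm45507. Its close relative Bnip3l, which serves the same process, was at 62.1 ± 2.96 and 68.5 ± 2.83 CPM. The Bnip3l libraries did not overlap, with DDR2-plus below, but the gene did not pass (log2 fold change -0.14, SE 0.0649, edgeR adjusted p = 0.107), and its sign turned to 0.13 under library-size scaling.

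Ddit4, an inhibitor of mTOR signalling that many stresses induce, was at 42.5, 41.97, 30.2, 37.8 and 30.3 CPM in DDR2-plus against 20.4, 19.1, 11.7, 19.4 and 19.8 CPM in PSC, 2.02-fold higher (edgeR adjusted p = 0.000313). The genes of the early response to dissociation, 9 of 10 of which were higher in DDR2-plus, moved with it, and their part was not tested. Car12, a carbonic anhydrase of the cell surface, was at 18.4, 30.1, 23.8, 30.5 and 21.4 CPM against 10.1, 3.96, 6.07, 2.45 and 5.13 CPM. It was 4.47-fold higher (log2 fold change 2.16, SE 0.314, edgeR adjusted p = 0.00015), and PSC 1 was the highest PSC library. The related Car9, often used as a marker of hypoxia, had 313 counts in all, lay between 0.476 ± 0.339 and 0.769 ± 0.498 CPM on average, and had 0 counts in PSC 1, which allows up to 0.0565 CPM there.

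Adm, which encodes the vasodilator adrenomedullin, was the target that fell. It was at 11.7, 11.5, 13.0, 6.94 and 13.7 CPM in DDR2-plus against 18.1, 31.9, 25.4, 30.0 and 13.2 CPM in PSC, 2.08-fold lower (log2 fold change -1.06, SE 0.248, edgeR adjusted p = 0.00454). PSC 5 lay within the DDR2-plus range, and the other PSC libraries lay above it. Ankrd37, a target with few other known inputs, stood at 1.64 ± 0.533 and 3.09 ± 0.734 CPM, without a call (log2 fold change -0.92, SE 0.354, edgeR adjusted p = 0.0566). In 5 of 19 alternative settings it was called as lower, and 26.2% of its exons are shared with other genes. Ndrg1, a stress and differentiation gene, stood at 66.8 ± 10.6 and 73.9 ± 10.9 CPM, Ero1a, an oxidase of protein folding, at 26.1 ± 5.97 and 23.5 ± 3.04 CPM, Higd1a, a mitochondrial protein, at 39.9 ± 3.24 and 38.6 ± 4.47 CPM, Kdm3a, a histone demethylase, at 32.9 ± 4.21 and 25.8 ± 11.5 CPM, and Mxi1, a MYC antagonist, at 34.8 ± 4.87 and 41.4 ± 6.03 CPM, all without a call. Of exons, 19.2% in Ndrg1, 22.5% in Higd1a and 12.3% in Gpi1 are shared with other gene models.

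Set side by side, 57.1% of the glycolytic enzymes and 25.0% of the HIF targets were higher in DDR2-plus, beside 20.1% of all tested genes, while 0 of 14 and 1 of 12 were lower. The further lists did not show this order, since 40.0% of 20 other HIF targets (median log2 fold change 0.20) and 15.4% of 13 other glycolysis genes (median 0.35) were higher. Within each library, the median over the 14 enzymes of the deviation of log2 CPM from the gene's mean over all libraries was 0.135 to 0.236 in DDR2-plus and -0.290 to 0.012 in PSC. The same median over the 12 HIF targets was -0.102 to 0.137 in DDR2-plus and -0.205 to 0.098 in PSC, so that the groups overlapped. PSC 1 had the highest enzyme value of the PSC libraries and was the highest PSC library for 8 of the 14 enzymes. The difference between the lists was not tested.

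**Figure D4:**
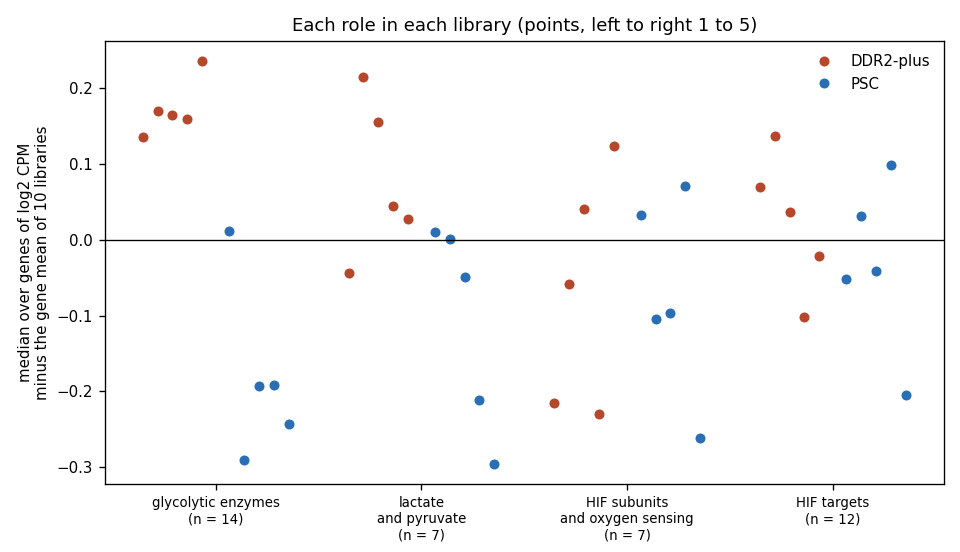
Median over the genes of a role of log2 CPM (with 0.5 CPM added) minus the mean of the gene over all 10 libraries, for each library of DDR2-plus (red) and PSC (blue). Enzymes lie at 0.135 to 0.236 in DDR2-plus and at or under 0.012 in PSC, and the HIF targets of the groups overlap.

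Ratios of related genes within a library do not depend on the scaling, and 16 pairs were compared. By exact permutation tests of the mean log2 ratio (two-sided, with Benjamini-Hochberg adjustment over the 16 pairs), 7 pairs differed, each with p = 0.00794, the smallest that 5 against 5 libraries can give, and an adjusted p of 0.0181. In each of the 7, the libraries of the groups did not overlap. These tests took same-numbered libraries of the groups as unpaired. Sign flips within library numbers cannot go below p = 0.0625, so by such an exact permutation test no gene pair could pass. Hk2 made up 40.6% ± 6.59 of the hexokinase pair per kilobase in DDR2-plus and 18.3% ± 4.14 in PSC, so that its ratio to Hk1 was 3.09-fold higher. Bnip3 was the larger partner of the mitophagy pair in every DDR2-plus library, at 66.9% to 72.9%, and made up 44.8% to 52.5% in PSC, a ratio to Bnip3l that was 2.68-fold higher.

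Aldoc made up 4.01% ± 0.599 of the aldolase pair in DDR2-plus and 0.563% ± 0.168 in PSC, and its ratio to Aldoa was 7.49-fold higher. Ldhb made up 11.0% ± 0.917 and 6.59% ± 0.391 of the lactate dehydrogenase pair, and its ratio to Ldha was 1.75-fold higher. Pfkfb4 made up 9.34% ± 4.78 and 36.0% ± 9.54 of its pair with Pfkfb3, and Eno3 8.11% ± 2.58 and 16.1% ± 2.91 of its pair with Eno1. Slc2a3 made up 2.15% ± 0.962 and 5.25% ± 1.43 of its pair with Slc2a1. Each of these shares was lower in DDR2-plus, where Pfkfb3, Eno1 and Slc2a1 were called as higher. Taken singly, Pfkfb4, Eno3 and Slc2a3 did not pass (edgeR adjusted p = 0.308, 0.108 and 0.508).

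The balance of the phosphofructokinase genes did not pass, with Pfkl at 52.5% ± 1.98 and 50.0% ± 1.46, Pfkm at 35.3% ± 0.930 and 35.4% ± 2.30, and Pfkp at 12.3% ± 1.24 and 14.7% ± 2.25 of the 3 genes per kilobase in DDR2-plus and PSC. The mean log2 ratio of Pfkl to Pfkm differed by 0.07 (exact permutation test, p = 0.317, adjusted p = 0.391) and that of Pfkp to Pfkm by -0.25 (exact permutation test, p = 0.143, adjusted p = 0.19). The ratio of Epas1 to Hif1a was 1.39-fold higher in DDR2-plus (exact permutation test, p = 0.0794, adjusted p = 0.141) and that of Slc16a3 to Slc16a1 1.44-fold lower (exact permutation test, p = 0.0714, adjusted p = 0.141), and neither passed.

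**Figure D5:**
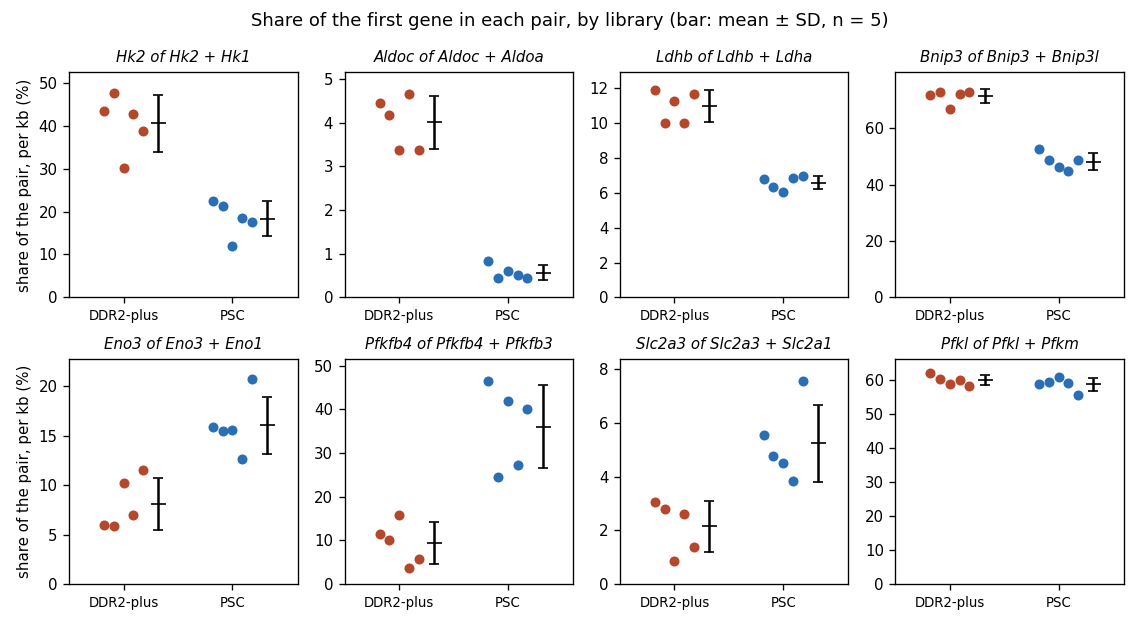
Share of the first gene of a pair, per exonic kilobase and in percent, in each library of DDR2-plus (red) and PSC (blue), with bars for the mean ± SD (n = 5). Hk2, Aldoc, Ldhb and Bnip3 hold larger shares in DDR2-plus, Eno3, Pfkfb4 and Slc2a3 smaller ones, and Pfkl overlaps.

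Other genes of the pathways, from 5 lists of 65 genes, gave 17 higher (27.4%) and 10 lower (16.1%) among 62 tested, so that 43.5% were called beside 39.1% of all tested genes. Of 20 further HIF targets, 8 rose (40.0%) and 4 fell. Bhlhe40, a clock-linked repressor, was 3.17-fold higher at 951 ± 131 against 300 ± 60.5 CPM, Trp53inp1, a stress protein, 3.22-fold, Ak4, a mitochondrial adenylate kinase, 2.27-fold, and Plod2, a collagen lysyl hydroxylase, 2.01-fold. Angptl4, a secreted inhibitor of lipoprotein lipase, was 2.10-fold lower at 79.6 ± 15.4 against 167 ± 4.38 CPM (the highest edgeR adjusted p of these 5 was 0.00461).

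The remaining lists are short, and their shares stand beside 20.1% higher and 19.0% lower over all tested genes. Among 10 further HIF regulators, 4 rose (40.0%) and 1 fell. Siah2, a ubiquitin ligase that acts on the prolyl hydroxylases, was 2.45-fold higher, with 94.5 ± 11.8 CPM in DDR2-plus against 38.6 ± 5.14 CPM in PSC (edgeR adjusted p = 2.7e-06), and Arnt2, a partner of the alpha subunits found mainly in neural tissue, was 2.83-fold higher (edgeR adjusted p = 0.00196), as were most neuron markers. At the entry of pyruvate into the mitochondria, 2 of 12 genes rose (16.7%) and 4 fell (33.3%). Pcx, the pyruvate carboxylase, was 4.05-fold higher at 30.5 ± 8.12 against 7.51 ± 3.78 CPM (edgeR adjusted p = 0.000234). The pentose phosphate branch had 1 of 7 genes up and 1 down (14.3% each), and the other glycolysis genes 2 of 13 tested up (15.4%) and 0 down by edgeR (0 also at an unadjusted p under 0.05), with Gapdh at 32.1 ± 3.004 and 28.8 ± 2.997 CPM.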

How the data were processed

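Counts per gene symbol were deposited by the authors as whole numbers, not normalized, for 10 libraries from sorted calvarial suture cells, 5 per group; the unit was read from the values, whose sums differ between libraries. Per the labels' protocols, cDNA was amplified from full-length RNA with a template-switching kit and libraries were made by tagmentation, which keeps no strand. Per the submitters' processing notes, mm10 and DESeq were used; the sources used here give no aligner, counter or annotation. The members and lists were chosen with earlier results of these data known. Named genes were all 44 members, Gapdh, and further pathway genes past the threshold with an absolute log2 fold change of at least 1 and 10 CPM in the higher group; 1 of these is not reported here.

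Groups were compared in edgeR 4.0.16 (R 4.3.3) by its quasi-likelihood test, with TMM factors, filterByExpr, no covariates and Benjamini-Hochberg adjustment over 15416 genes (threshold 0.05). The standard error is the absolute log2 fold change over the root of F. The test was tested on simulated counts. Ratios of counts (1 added) were tested exactly with SciPy 1.17.1. Exonic lengths and gene positions are from GENCODE M21 (GRCm38), and the authors' counting may have used other gene models. Alternatives were other factors, filters, DESeq2 1.42.0, limma 3.58.1 (voom), a library-number block, the type I collagen genes left out, and each library left out. At these depths 1 count was worth 0.0161 to 0.0230 CPM of the total, and intervals and floors cover counting error only, since amplified reads are not independent molecules. No 2 libraries of a group agreed within sampling noise (lowest chi-square per degree of freedom 41.6).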

Additional observations from a re-analysis of the deposited data

Results flagged for a closer look

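Among 88 groups of 5 libraries (44 genes in both populations), 5 had a library that stood apart from the other 4 (Dixon's gap over range above 0.71), which is 5.68%, and chance alone gives about 1 in 20. In 3 of the 5 the library was PSC 1, with Eno1 at 141 CPM against 103 to 113 CPM in the other PSC libraries, Pfkfb4 at 12.1 CPM against 5.88 to 6.92 CPM and Ldha at 553 CPM against 468 to 486 CPM. Pdk1 was at 71.0 CPM in DDR2-plus 2 against 45.7 to 52.4 CPM in the other DDR2-plus libraries. Ddit4 was at 11.7 CPM in PSC 3 against 19.1 to 20.4 CPM. Eno1, Ldha and Ddit4 kept their calls in all 19 alternative settings, those without these libraries included.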

How the results depend on the processing

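Of the 23 called members, 19 kept their call in all 19 alternative settings of the gene test; the exceptions were Pgam1, Slc16a1, Egln1 and Egln2. Library size as the only scaling moved the median of all genes by 0.27 and gave 5421 higher and 1538 lower genes, against 3096 and 2926. It gave 2 lower members in place of 5, 5 higher HIF targets in place of 3, and turned Aldoa to 0.24. This setting drops the TMM factors, which were 1.0615 to 1.1328 in DDR2-plus and 0.89792 to 0.9251 in PSC. Why the factors differ between the groups was not tested. DESeq2, limma-voom and the filter of at least 1 CPM in 5 libraries each gave 2 lower HIF targets, Ankrd37 being the addition, against 1. Leaving out 1 library gave 0 to 1 lower enzymes (1 without DDR2-plus 5, Eno3, or PSC 2, Hk1) and 1 to 2 lower HIF targets (2 without DDR2-plus 3 or PSC 4). With 4 libraries in a group the smallest exact p is 0.0159.

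The same library numbers run through both groups, and whether a number marks a shared source is not said. Deviations of same-numbered libraries correlated weakly, at 0.0289 to 0.0532, but 10 of 10 libraries correlated best with their own number. A pairing by number, small in size, is therefore possible, and the main tests did not use it. The replicate block left 18 higher and 5 lower members, and 3054 higher and 2688 lower genes over all. An exact permutation test by sign flips within numbers (replicate block) gave 0 isozyme ratios past the threshold, and with 5 pairs it cannot go below p = 0.0625. Genes under 1 CPM, Hif3a and Car9, are limited by depth and were not tested under the filter of 1 CPM.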
